A study of Arabidopsis thaliana with 24 samples.

Results

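The data compared the shoot of *hy5-215* with the shoot of wild type (WT) Col-0 seedlings at 22 °C, across all genes, in 6 of the 24 libraries of the series. The members are the 3 libraries of each genotype, chosen by genotype, tissue and temperature from the sample titles and joined by gene identifier. Col-0 is the Arabidopsis thaliana accession used as wild type, and *hy5-215* is a line with a mutant allele of *HY5* whose lesion the labels do not describe. Both groups were seedlings grown for 5 days and then kept for 4 h at 22 °C in white light (25 μmol per m2 and s by the labels), so as labelled they differ by genotype only. The study's methods give an older seedling and a higher light intensity than the labels, and which applies was not settled. The labels call the tissue hypocotyl where the study's methods give shoot, meaning hypocotyl and cotyledon, and their genotype entry reads wild type for every shoot sample, which is why the titles decided the genotype here. The study names 3 biological replicates for each group, but nothing in the labels says that they came from separate cultures, and the p-values measure the spread between these libraries. The rest of the series holds the same genotypes at 28 °C and in the root, which were used here only to set the shoot values at 22 °C beside libraries that the comparison did not use.

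HY5 is a bZIP transcription factor that promotes seedling development in the light. In darkness it is marked for degradation by the COP1/SPA ubiquitin ligase, and photoreceptors that inactivate COP1/SPA let it accumulate. It binds DNA motifs with an ACGT core and is known for its part in flavonoid and anthocyanin synthesis, protection from UV and strong light, greening, the limits on hypocotyl growth and the uptake of mineral nutrients.

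The counts come from 3′Tag-Seq, in which each transcript gives reads near its 3′ end. Total counts ran from 2718159 to 2824576 in the 3 Col-0 libraries and from 2635000 to 3781032 in the 3 *hy5-215* libraries. Levels are given as CPM, the counts of a gene scaled to a common library total with TMM factors. Chi-square over degrees of freedom, taken on the counts, was 1.47 to 2.76 between libraries of one genotype and 5.07 to 7.5 between genotypes, so no library was a copy of another. The first principal component held 44% of the variance and separated the genotypes, and *hy5-215* replicate 3 stood at one end of the second. Shoot markers, 8 genes of leaf photosynthesis, summed to 44160 to 50080 CPM in WT and to 59460 to 61620 CPM in *hy5-215*. The 13 root markers summed to 1169 to 1185 CPM in WT and 899 to 1115 CPM in *hy5-215*, against 7297 to 7994 CPM in the Col-0 and 5000 to 5649 CPM in the *hy5-215* root libraries at 22 °C. Of 3 seed storage markers, *SESA1* was at 0 in all 6 shoot libraries, and the summed level was 0.344 to 0.352 CPM in WT and 4.78 to 13.8 CPM in *hy5-215*. In bulk tissue, a change in the share of a cell type and a change of RNA per cell cannot be told apart, and the part of these markers in the results was not tested.

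*HY5* itself (AT5G11260, TAIR10.1 chromosome 5, 3593335 to 3595073, minus strand) was counted in every library. Its level was 25.7, 20.6 and 26.9 CPM in the 3 Col-0 libraries and 15.1, 15.4 and 20.04 CPM in the 3 *hy5-215* libraries. All mutant libraries were below all Col-0 libraries, by little. Over all genes tested, the groups did not overlap in 24.7%. The log2 fold change of *hy5-215* over Col-0 was -0.53 (SE 0.18), and the adjusted p was 0.0513 in the quasi-likelihood test of edgeR (p-values adjusted by Benjamini-Hochberg over all genes tested), so it does not pass 0.05. Whether the adjusted p passes 0.05 turns on the setting, but the fall stayed under 2-fold in every setting (-0.67 to -0.46), so *HY5* was a DEG in none. *HY5* passed with library size alone (0.0156), a likelihood ratio test (0.0381), a replicate block (0.0409) and without Col-0 replicate 2 (0.0416) or *hy5-215* replicate 3 (0.0138), and the adjusted p ranged up to 0.231 in DESeq2. In the root at 22 °C the *HY5* level was 54.1, 59.5 and 77.1 CPM in WT and 15.4, 20.97 and 12.7 CPM in *hy5-215*, a log2 fold change of -1.92, and the genotype effect differed between the tissues (genotype by tissue interaction -1.39, adjusted p = 0.000763, edgeR). Reads at the 3′ end of a transcript that is still made do not test whether the protein is lost, so the level of *HY5* in the shoot does not check the labels. *HYH*, the closest relative of HY5, stood at 74.9, 64.4 and 66.4 CPM in WT and 57.7, 57.5 and 68.1 CPM in *hy5-215* (log2 fold change -0.17, adjusted p = 0.426, edgeR).

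Of 15548 genes tested, 269 were differentially expressed genes (DEGs), 1.73% of the genes tested. To count as a DEG, a gene had to reach 0.05 by its edgeR adjusted p and differ 2-fold or more. Higher in *hy5-215* were 108 genes (0.695%), with a median log2 fold change of 1.41, and lower were 161 genes (1.04%), with a median of -1.29. By the adjusted p alone, with no fold threshold and DEGs included, 795 genes (5.11%) were higher and 659 (4.24%) lower. The median over all genes tested was -0.00282. The groups did not overlap in 156 of the 161 lower and 107 of the 108 higher DEGs, so the lack of overlap given below does not set a DEG apart. The DEGs lay on all 5 chromosomes, at 1.61% to 1.77% of the genes tested on each, and within 1 Mb of *HY5* 6 of 377 genes tested were DEGs (1.59%). Scaling by library size alone moved the median of all genes to -0.10 and the share of DEGs that were higher from 40.1% to 27.7%, so small changes are read below against TMM scaling. Genes on the other strand overlap *SRG3*, *bHLH38*, *GSTF12*, *PHR1*, *LHCB2.3*, *NRT1.5*, *GH9B15*, AT4G15242 and AT2G05914 as well as those marked below, and reads of such pairs may be shared.

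The lists below were chosen with earlier results of these data known, and those for phosphate, sulfur, iron and copper were added after the values had been seen. They are described by their counts beside the shares of all genes given above, without a test of the list. The plot of all list members shows each gene's fold change beside the list median.

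**Figure D1:**
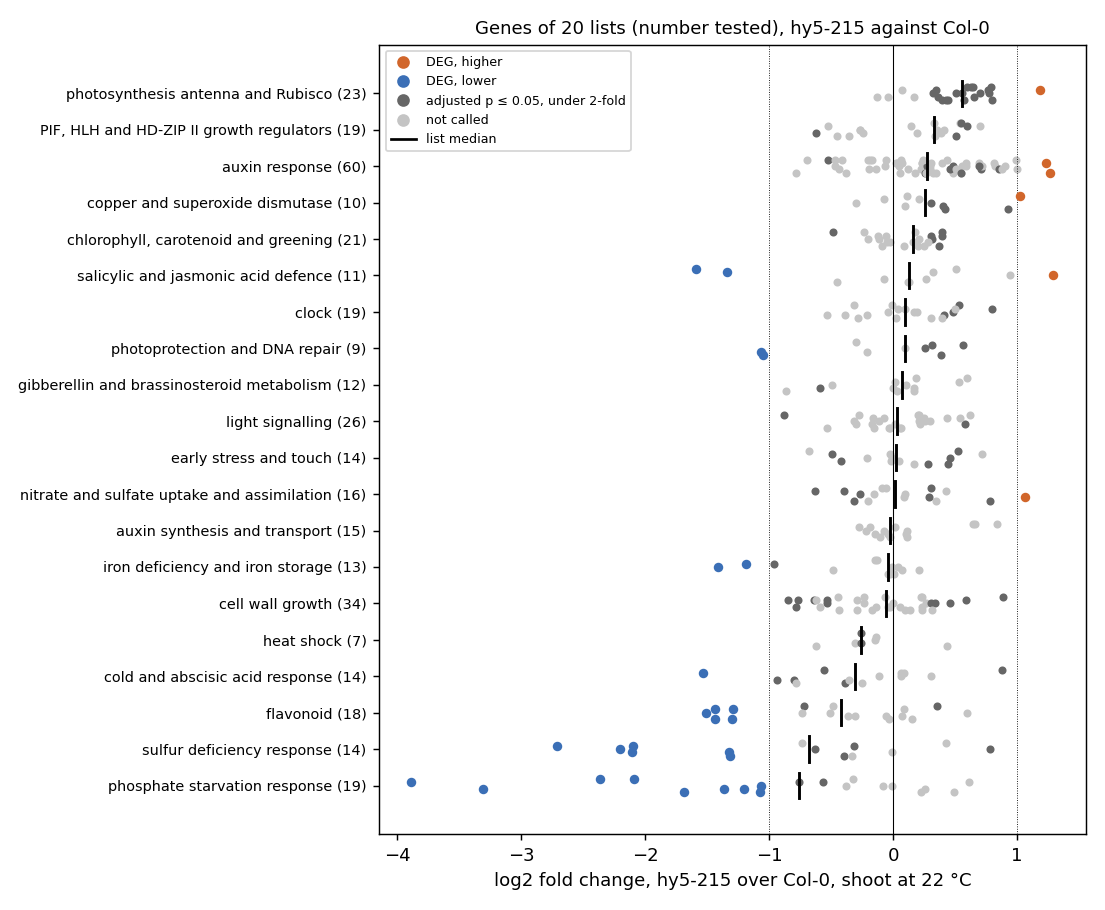
Log2 fold change of *hy5-215* over Col-0 in the shoot at 22 °C (x axis, log2 units) for the tested genes of 20 lists (y axis, number tested in parentheses). Points are genes, black bars are list medians, and dotted lines mark 2-fold; the phosphate and sulfur lists have medians of -0.76 and -0.68 and the antenna list a median of 0.55.

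Genes that plants turn on when phosphate is scarce were lower in *hy5-215*. Of 19 such genes tested, 9 were DEGs, all lower, and 2 more were lower by the adjusted p alone. Their median log2 fold change was -0.76. Low phosphate is signalled through transcription factors that SPX proteins hold back when phosphate is ample, and the output includes phosphatases, transporters, noncoding RNAs and the replacement of phospholipids by other lipids.

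The acid phosphatase gene *PAP17* (chromosome 3, 6089381 to 6091231, plus strand) had 25.7, 32.9 and 27.2 CPM in WT and 6.37, 6.88 and 3.11 CPM in *hy5-215*. The groups did not overlap (-2.36 on the log2 scale, SE 0.23, adjusted p = 6.02e-11, edgeR). A gene on the other strand overlaps *PAP17*, and whether strand was used in counting is not given in the sources used here. *IPS2* (AT5G03545), a relative of the noncoding phosphate-starvation RNA *IPS1*, fell from 52.05, 41.3 and 43.7 CPM to 8.76, 12.1 and 10.7 CPM, or -2.09 on the log2 scale (SE 0.17, adjusted p = 2.72e-13, edgeR). *IPS1*, which binds miR399 without being cut and so keeps it from its targets, had 9.14, 6.997 and 5.16 CPM in Col-0. In *hy5-215* it was at or under the floor of 3 counts in every library, with 4 counts in all against 61 in Col-0. That is a ratio of 16 between the genotypes, with a 95% interval from 5.94 to 60.6 that covers counting error only. *IPS1* passed the filter on low counts only through Col-0, so a difference was built in.

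Further down the same response, *PPsPase1*, a phosphatase induced by phosphate starvation, had 14.4, 9.45 and 6.88 CPM in WT and 1.59, 1.101 and 0.346 CPM in *hy5-215* (log2 fold change -3.31, adjusted p = 2.16e-07, edgeR). *PEPC1*, which encodes a phosphoethanolamine/phosphocholine phosphatase and not the carboxylase of the same abbreviation, fell by 1.68 on the log2 scale (adjusted p = 0.00205, edgeR). Both genes had few counts in the mutant, and *PPsPase1* passed the filter on low counts only through Col-0. *SPX1*, a phosphate sensor that restrains the response, had 47.8, 34.98 and 44.8 CPM in WT and 13.1, 23.7 and 22.5 CPM in *hy5-215*. *SRG3*, a glycerophosphodiester phosphodiesterase gene, had 43.96, 32.5 and 45.1 CPM and 21.1, 17.3 and 20.04 CPM. Both fell by 1.07 on the log2 scale, close to the 2-fold line. *SPX1* went under it without Col-0 replicate 1 (-0.98) or *hy5-215* replicate 1 (-0.88), and *SRG3* without Col-0 replicate 3 (-0.98) or *hy5-215* replicate 2 (-0.98).

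The phosphate transporter gene *PHT1;4* (log2 fold change -1.36, adjusted p = 0.00797, edgeR) and the galactolipid synthase gene *MGD2* (-1.199, adjusted p = 0.0289) had the highest adjusted p among the DEGs of the list. *PHT1;4* lost its call without Col-0 replicate 2 (adjusted p = 0.0523, edgeR) and in DESeq2 (0.0553). *MGD2* lost its call in DESeq2 (adjusted p = 0.135) and without Col-0 replicate 2 or 3 or *hy5-215* replicate 1 or 3 (adjusted p from 0.0991 to 0.133 in edgeR). By the adjusted p alone, *SQD2*, which makes the sulfolipid that stands in for phospholipid, was lower (log2 fold change -0.76), as was *SPX2* (-0.56). Not every gene of the list was lower. The main phosphate transporter gene *PHT1;1* had a log2 fold change of 0.61 (adjusted p = 0.173, edgeR), and *PHO2*, the target of miR399, one of 0.22 (adjusted p = 0.299).

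Genes that respond to sulfur shortage were lower as well. Of 14 tested, 6 were DEGs, all lower, and 3 more, the sulfate-reducing enzyme genes *APR1*, *APR2* and *APR3*, were lower by the adjusted p alone, with log2 fold changes of -0.63, -0.39 and -0.32. The list's median was -0.68. The LSU proteins are small proteins that accumulate when sulfur runs short. *LSU1* (chromosome 3, 18374908 to 18375940, minus strand) had 40.1, 23.4 and 26.5 CPM in WT and 6.37, 9.63 and 4.15 CPM in *hy5-215*, or -2.11 as a log2 fold change (SE 0.23, adjusted p = 2.11e-09, edgeR). *LSU2* had 50.6, 44.4 and 41.7 CPM and 12.7, 20.6 and 20.04 CPM, and *LSU3* 56.3, 44.4 and 44.4 CPM and 19.5, 17.9 and 21.1 CPM. For all 3 genes every mutant library was below every Col-0 library.

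*ATSDI1*, named for its induction by sulfur deficiency and known to repress glucosinolate synthesis, had 32.4, 20.3 and 30.6 CPM in WT and 9.56, 4.68 and 5.87 CPM in *hy5-215* (log2 fold change -2.097, adjusted p = 2.25e-09, edgeR). *GGCT2;1*, which encodes an enzyme of glutathione breakdown, fell from 14.4, 10.5 and 13.8 CPM to 3.19, 2.201 and 3.11 CPM. *BGLU28*, a beta-glucosidase gene, had 52 counts in Col-0 and 8 in *hy5-215*, where each library was at or under the floor. The ratio was 6.83, with a counting interval from 3.22 to 16.6. *GGCT2;1* and *BGLU28* passed the filter on low counts only through Col-0, so a difference was built in. In the other direction, *SULTR1;2*, the main sulfate uptake transporter of the root, was higher by the adjusted p alone (log2 fold change 0.78, adjusted p = 0.0332, edgeR). It did not pass in DESeq2, with library size alone or in the joint fit of the 4 shoot groups. Nor did it pass without Col-0 replicate 2 or 3 or *hy5-215* replicate 2.

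Of 13 genes of iron deficiency and iron storage, *bHLH38* and *BHLH100* were DEGs and lower (15.4% of the list, against 1.73% of all genes tested). Both encode bHLH factors of the group that rises under iron shortage. *bHLH38* had 12.3, 15.4 and 16.9 CPM in WT and 4.38, 9.63 and 1.73 CPM in *hy5-215*, with the mutant libraries far apart. It fell just under 2-fold (-0.999) without *hy5-215* replicate 3 and was not called by DESeq2 (adjusted p = 0.194). *BHLH100* had 13.4, 7.35 and 12.05 CPM and 8.36, 4.68 and 1.73 CPM, so the groups overlapped. It lost its call in DESeq2 (adjusted p = 0.0819) and without Col-0 replicate 1 or 3 or *hy5-215* replicate 2 or 3 (adjusted p from 0.0502 to 0.0864 in edgeR). *bHLH39* was lower by the adjusted p alone (-0.96). Of 10 copper and superoxide dismutase genes, the chloroplast superoxide dismutase gene *CSD2* was a DEG and higher, with 65.4, 84.7 and 81.2 CPM in WT and 138, 141 and 190 CPM in *hy5-215* (log2 fold change 1.02). It went under 2-fold with library size alone (0.92) and without Col-0 replicate 1 (0.92) or *hy5-215* replicate 3 (0.86). By the adjusted p alone its cytosolic relative *CSD1* (0.42), their chaperone *CCS* (0.401), the plastocyanin gene *PETE2* (0.31) and the copper transporter gene *COPT2* (0.92) were higher too. The 5 higher genes of the copper list became 2, with 1 lower, under library size alone, and 3 without Col-0 replicate 2 or 3 or *hy5-215* replicate 1.

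Flavonoid genes were lower in part. Of 18 tested, 5 were DEGs and lower, none was a higher DEG, and the median log2 fold change was -0.42, or -0.21 without Col-0 replicate 1. Flavonoids are phenolic pigments and sunscreens made from phenylpropanoids, with chalcone synthase as the entry enzyme. *CHS* (chromosome 5, 4488476 to 4490264, plus strand), which encodes chalcone synthase, had 145, 94.5 and 99.1 CPM in WT and 52.6, 54.5 and 30.8 CPM in *hy5-215*. It fell, with a log2 value of -1.29 (SE 0.14, adjusted p = 1.21e-09, edgeR), with no overlap between the groups. Another gene overlaps it on the other strand. *FLS1*, the flavonol synthase gene, had 24.3, 19.9 and 20.7 CPM and 11.5, 7.15 and 4.49 CPM, the largest fall of the list (-1.51, SE 0.23, adjusted p = 5.06e-06, edgeR). *4CL3*, the coumarate ligase gene that feeds flavonoid synthesis, had 15.5, 13.6 and 9.98 CPM and 6.77, 3.85 and 4.15 CPM. The late genes *LDOX* (11.6, 6.65 and 9.64 CPM in WT, 2.39, 4.402 and 4.15 CPM in the mutant), needed for anthocyanin, and *GSTF12* (11.96, 10.8 and 7.23 CPM and 5.18, 3.58 and 2.42 CPM), needed to bring anthocyanin into the vacuole, were low in both genotypes. *LDOX* lost its call without Col-0 replicate 1 (adjusted p = 0.0548, edgeR) and in a joint fit of the 4 shoot groups (0.0593).

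Between these enzymes, *CHI* was lower by the adjusted p alone (-0.72) and *F3H* was not called (-0.51, adjusted p = 0.168, edgeR). *MYBL2*, a repressor of anthocyanin genes, was higher by the adjusted p alone (0.35). It did not pass in DESeq2, with library size alone or in the joint fit of the 4 shoot groups. Nor did it pass without Col-0 replicate 2 or 3 or *hy5-215* replicate 1 or 2. The activators *MYB12* (mean 0.701 CPM in Col-0, 0.115 in *hy5-215*), *MYB111* (3.61 and 2.48) and *PAP1* (0.931 and 0.115) had too few counts to be tested at this depth.

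Among 9 genes of photoprotection and DNA repair, 2 were DEGs and lower. *ELIP2*, an early light-induced protein of the thylakoid, had 55.2, 45.8 and 50.3 CPM in WT and 26.7, 31.9 and 13.5 CPM in *hy5-215* (log2 fold change -1.05, adjusted p = 6.2e-06, edgeR). It went under 2-fold without Col-0 replicate 1 (-0.98) or *hy5-215* replicate 3 (-0.76). *PHR1* (AT1G12370), the photolyase that repairs pyrimidine dimers with light and not the phosphate regulator of the same symbol, had 8.09, 5.25 and 8.26 CPM and 3.19, 3.58 and 3.46 CPM. Its log2 fold change was -1.06 (adjusted p = 0.0409, edgeR), and it lost its call in 5 of the 6 fits with 1 library left out, all except Col-0 replicate 2 (adjusted p from 0.0687 to 0.181), in DESeq2 (0.19) and in the joint fit of the shoot groups (0.0613). Other members were higher by the adjusted p alone, among them the xanthophyll cycle genes *ZEP* (0.56) and *NPQ1* (0.39) and *PSBS* (0.31), which senses lumen acidity. The 4 higher genes of the list became 3 with library size alone, 2 without Col-0 replicate 2 or *hy5-215* replicate 1 and 1 without Col-0 replicate 3.

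**Figure D2:**
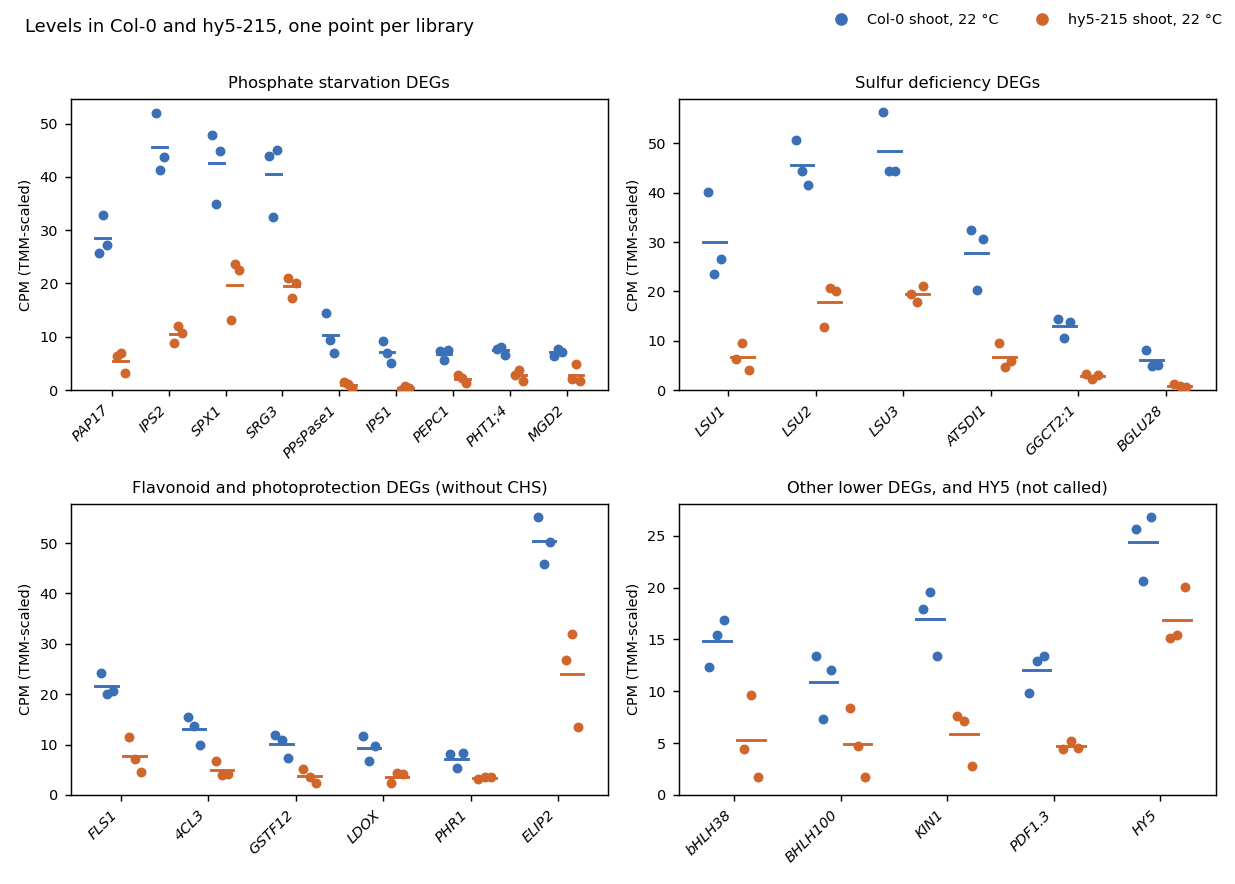
TMM-scaled CPM (y axis, linear from 0) of DEGs lower in *hy5-215* and of *HY5*, which was not called, in each shoot library at 22 °C. Points are libraries (3 for each genotype) and bars are means; *PAP17* stood at 28.6 CPM on average in Col-0 and 5.45 CPM in *hy5-215*, and only *BHLH100* had groups that overlap.

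HY5 binds ACGT-core motifs, so the windows from 250 bases before to 50 bases after the annotated gene start were searched in the TAIR10.1 genome sequence from RefSeq. The first motif was the core ACGT and the next the G-box, CACGTG. A further motif was GACGTG, which reads CACGTC on the other strand. The last was GACGTA, which reads TACGTC on the other strand. Each was searched on both strands, and the longer 3 contain the core. An ACGT core was present in 62.1% of the 153 windows of lower DEGs, in 45.2% of the 104 windows of higher DEGs, in 50.4% of the 15365 windows of genes tested and in 49.9% of all 27437 windows of protein-coding genes. The G-box was present in 12.4%, 6.73%, 9.18% and 7.68% of the same windows. GACGTG was present in 11.8%, 8.65%, 7.5% and 6.98%, and GACGTA in 6.54%, 8.65%, 4.84% and 4.95%. These shares are descriptions and were not tested.

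Of the 7 flavonoid and photoprotection DEGs, *CHS*, *PHR1* and *FLS1* held an ACGT core in this window, and *GSTF12*, *4CL3*, *LDOX* and *ELIP2* did not. The windows of the 3 genes that did, chosen after the match was seen, are printed 5′ to 3′ on the gene's own strand, with the motifs in capitals, to show where the cores lie.
*CHS* (chr5:4488226-4488525, plus strand): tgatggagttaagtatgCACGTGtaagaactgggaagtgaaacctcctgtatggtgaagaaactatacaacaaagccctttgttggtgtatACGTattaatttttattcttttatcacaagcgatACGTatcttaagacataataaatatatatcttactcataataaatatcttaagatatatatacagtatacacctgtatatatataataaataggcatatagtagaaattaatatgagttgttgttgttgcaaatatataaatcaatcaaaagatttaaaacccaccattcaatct
*PHR1* (chr1:4208950-4209249, minus strand): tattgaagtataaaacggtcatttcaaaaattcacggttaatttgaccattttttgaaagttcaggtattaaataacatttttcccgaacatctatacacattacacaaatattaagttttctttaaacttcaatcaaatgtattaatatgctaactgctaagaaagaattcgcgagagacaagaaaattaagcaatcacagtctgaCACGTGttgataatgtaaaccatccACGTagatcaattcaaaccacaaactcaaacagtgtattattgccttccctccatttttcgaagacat
*FLS1* (chr5:2803583-2803882, plus strand): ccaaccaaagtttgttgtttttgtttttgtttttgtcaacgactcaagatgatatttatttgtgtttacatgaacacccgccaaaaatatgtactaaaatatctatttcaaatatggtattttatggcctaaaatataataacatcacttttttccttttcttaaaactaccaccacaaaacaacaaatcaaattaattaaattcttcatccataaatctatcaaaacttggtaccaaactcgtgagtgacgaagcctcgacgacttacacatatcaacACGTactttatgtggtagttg
The *CHS* window has a G-box and 2 further cores upstream of the start. The *PHR1* window has a G-box and 1 further core, both close to the start, and the single core of *FLS1* lies after the start. A match shows that the letters are there, not that HY5 was bound.

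Nuclear genes of the photosynthetic antenna and of Rubisco were higher in *hy5-215*, mostly by less than 2-fold. Of 23 tested, 19 were higher and none lower by the adjusted p alone, and the median log2 fold change was 0.55. Light-harvesting proteins bind chlorophyll around the photosystems, and *RBCS* genes encode the small subunit of Rubisco. *LHCB2.3* was the only DEG of the list, with 947, 597 and 713 CPM in WT and 1966, 1833 and 1338 CPM in *hy5-215* (log2 fold change 1.19, SE 0.11, adjusted p = 9.93e-12, edgeR). *LHCB1.5* had 6271, 5870 and 6051 CPM in WT and 11327, 10742 and 9421 CPM in *hy5-215* (log2 fold change 0.79), and *LHCA1*, of the antenna of photosystem I, had a log2 fold change of 0.79. *RBCS1A*, with the most counts of the list, had 18096, 15573 and 17138 CPM and 21163, 23439 and 24534 CPM (log2 fold change 0.44). The members not called were *LHCB1.3* (0.07), *LHCB4.3* (0.17), *LHCB7* (-0.04) and *RBCS1B* (-0.13). Leaving out 1 library at a time gave 18 or 19 higher genes, and library size alone gave 19 higher and 1 lower. Close copies such as *LHCB1.1* to *LHCB1.3* or *LHCB2.1* to *LHCB2.3* share sequence, and the counting may have split their reads. The shoot markers given above include several of these genes and were higher in the mutant libraries too, with 6 of 8 higher and 1, *GLK1*, lower by the adjusted p.

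In the synthesis of chlorophyll and carotenoids and among greening regulators, none of 21 genes was a DEG at 22 °C. By the adjusted p alone, 5 were higher. Among them were *CHLH* (0.39) and *CHL27* (0.39), which act in chlorophyll synthesis, and *HEMA1* (0.31), which acts earlier in the same route. The others were *CAO* (0.31), which makes chlorophyll b, and *PORC* (0.37), which reduces protochlorophyllide. *GLK1*, a transcription factor that turns on antenna genes, was lower, with 52.4, 45.1 and 45.8 CPM in WT and 39.8, 34.9 and 27.99 CPM in *hy5-215* (-0.48, adjusted p = 0.0128, edgeR). With library size alone 2 genes of this list were higher and 3 lower. The higher genes numbered 2 without Col-0 replicate 2 or 3 and 3 without *hy5-215* replicate 1, and none was lower without Col-0 replicate 1 or *hy5-215* replicate 3.

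**Figure D3:**
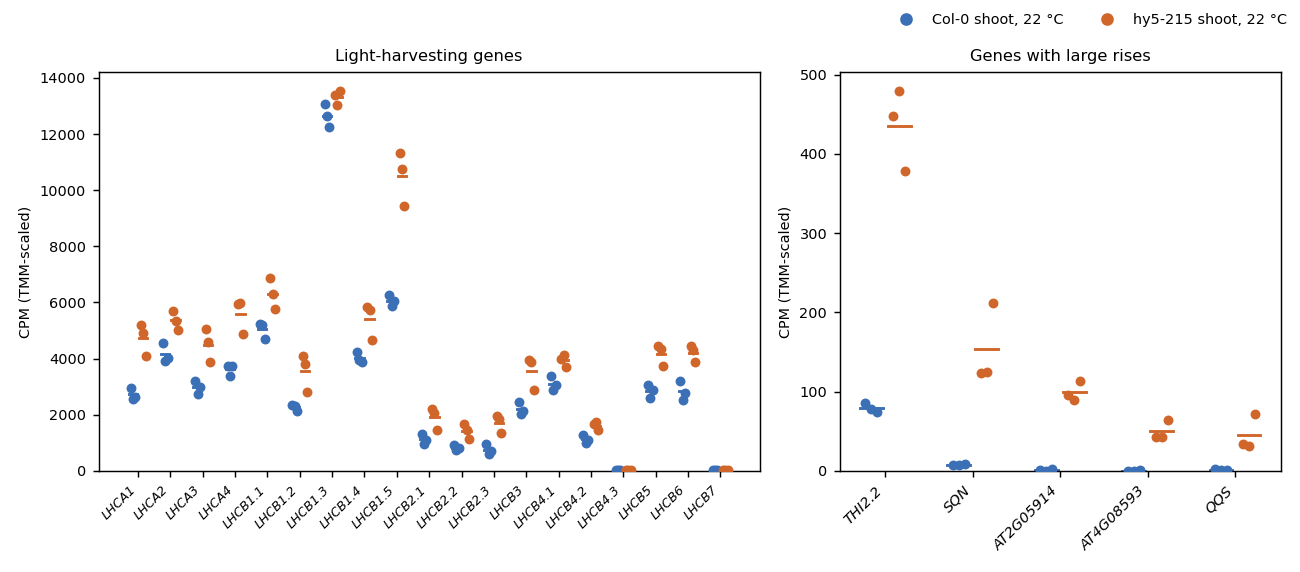
TMM-scaled CPM (y axes, linear from 0) of the light-harvesting genes on the left and of 5 genes with large rises on the right, in the shoot at 22 °C. Points are libraries (3 for each genotype) and bars are means; *LHCB2.3* averaged 752 CPM in WT and 1706 CPM in *hy5-215*, and *THI2.2* 79.4 and 435 CPM.

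The largest rises started from almost no counts. In 21 of the 108 higher DEGs, every Col-0 library was at or under 3 counts, and 8 of these had no count at all in Col-0. They passed the filter on low counts only through *hy5-215*, so a difference was built in. On chromosome 4, which holds 2390 of the 15548 genes tested, lay 10 of the 21. Of the 21, 10 are annotated as uncharacterized or hypothetical. AT4G08593 had 2 and 448 counts in all in the Col-0 and the *hy5-215* libraries (ratio 213, interval 58.7 to 1767). AT4G15242, an RNA gene, had 1 and 229 counts (ratio 218, interval 38.8 to 8651), AT4G16215 had 1 and 194 (ratio 185, interval 32.8 to 7334), and AT4G04265, annotated as a transposase, had 1 and 164 (ratio 156, interval 27.6 to 6206). *OFP9*, of the OVATE family of transcription repressors, had 3 and 234 counts (ratio 74.3, interval 25.1 to 363), and AT3G14670 had 4 and 159 (ratio 37.9, interval 14.5 to 141). AT1G75945 was the reverse case and passed the filter only through Col-0. It had 17.9, 21.3 and 26.5 CPM in WT and 0, 0 and 0.346 CPM in *hy5-215* (189 and 1 counts in all, ratio 198, interval 35.2 to 7880). At 28 °C it had 21.2, 14.02 and 13.9 CPM in WT and 0.695, 0.2996 and 0.793 CPM in the mutant, and in the root 22.9, 30.6 and 22.97 CPM and no count.

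Above the floor, AT2G05914, an RNA gene, rose from 1.41, 0.3498 and 2.41 CPM to 95.2, 89.1 and 113 CPM (log2 fold change 6.11, adjusted p = 1.98e-25, edgeR). *QQS*, a species-specific gene that affects starch content, had 2.11, 1.05 and 1.72 CPM in WT and 33.8, 31.4 and 72.2 CPM in *hy5-215* (log2 fold change 4.77), with replicate 3 of the mutant at about 2 times the others. *SQN* (chromosome 2, 6877774 to 6880898, minus strand), the cyclophilin-40 needed for the work of microRNAs, had 7.39, 7.35 and 9.29 CPM and 123, 125 and 212 CPM, or 4.25 as a log2 fold change (SE 0.19, adjusted p = 3.74e-23, edgeR). It too has a gene on its other strand. *THI2.2*, which encodes a thionin, a small antimicrobial peptide, had 85.5, 78.4 and 74.4 CPM and 447, 479 and 378 CPM (log2 fold change 2.45, SE 0.09, adjusted p = 2.29e-25, edgeR). *GH9B15*, a glycosyl hydrolase gene, rose from 2.11, 1.399 and 2.41 CPM to 15.9, 14.3 and 10.7 CPM, and AT1G06963 from 0.703, 0.6997 and 1.38 CPM to 13.1, 13.8 and 13.5 CPM. The rule that named these genes required that the genotypes not overlap, so their separation adds no support. AT2G05914, *QQS*, *GH9B15* and AT1G06963 had at most 7 counts in any Col-0 library, under the filter's minimum count of 10. They too passed only through *hy5-215*, so a difference was built in for them as well.

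The other genes with the largest falls were *DIN2*, a dark-inducible beta-glucosidase gene, with 45.01, 55.3 and 50.3 CPM in WT and 10.8, 12.4 and 14.2 CPM in *hy5-215* (log2 fold change -2.003, SE 0.16, adjusted p = 1.41e-13, edgeR), and 5 genes to which the annotation used here gives no symbol. Names given to them elsewhere were not looked up. Of these, AT5G26270 passed the filter on low counts only through Col-0, so a difference was built in. AT5G20790 had 49.9, 37.1 and 42.7 CPM and 9.96, 10.7 and 8.98 CPM, AT1G47400 had 29.9, 35.7 and 27.2 CPM and 10.8, 8.25 and 4.84 CPM, AT5G26270, which overlaps a gene on the opposite strand, had 18.6, 13.3 and 15.5 CPM and 2.39, 1.101 and 1.73 CPM, and AT4G13575 and AT5G33370 fell by 1.95 and 1.94 on the log2 scale.

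Of 60 auxin response genes tested, 2 were DEGs (3.33%, against 1.73% of all genes tested), both higher. In this list 10 were higher and 1 lower by the adjusted p alone, and the median log2 fold change was 0.27. Aux/IAA proteins are short-lived repressors whose genes auxin induces. *IAA1* had 10.6, 12.6 and 8.61 CPM in WT and 22.7, 25.3 and 26.6 CPM in *hy5-215* (log2 fold change 1.24, SE 0.197, adjusted p = 8.31e-06, edgeR). *IAA3* (0.71), *IAA14* (0.69), *IAA4* (0.54), *IAA17* (0.48), *IAA2* (0.46), *IAA7* (0.27) and *IAA8* (0.25) were higher by the adjusted p alone, all under 2-fold. *SAUR29*, of the small auxin up RNAs, had 3.17, 3.498 and 3.44 CPM and 5.18, 12.1 and 6.22 CPM. It lost its call without Col-0 replicate 2 or 3 (adjusted p = 0.0585 and 0.0604 in edgeR) or *hy5-215* replicate 2 (log2 fold change 0.76, adjusted p = 0.363). The call was lost in DESeq2 as well (adjusted p = 0.108). With library size alone, 8 auxin response genes were higher and 4 lower by the adjusted p, and without *hy5-215* replicate 3 there were 18 higher. None of 15 genes of auxin synthesis and transport passed the adjusted p.

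Among PIF, HLH and HD-ZIP II growth regulators (19 tested), none was a DEG. The growth-promoting bHLH genes *PIF5* (0.51) and *PIF7* (0.59) and the homeodomain gene *HAT1* (0.55) were higher and *PIF3* (-0.62) lower by the adjusted p alone. With library size alone 1 was higher and 2 lower. Without Col-0 replicate 2 or *hy5-215* replicate 1 only 1 was higher, and none was lower in any fit with 1 library left out except that without Col-0 replicate 1. Of 34 cell wall growth genes, none was a DEG, 5 were higher and 6 lower by the adjusted p alone. The expansin genes *EXPA10* (-0.85), *EXPA15* (-0.77), *EXPA4* (-0.64) and *EXPA5* (-0.53), whose products loosen walls, were lower and *EXPA8* (0.89) higher. The xyloglucan enzyme genes split, with *XTH15* (-0.78) and *XTH31* (-0.53) lower and *XTH6* (0.59), *TCH4* (0.45), *XTH27* (0.33) and *XTH7* (0.302) higher. Of 12 gibberellin and brassinosteroid genes, *GA3*, an early gibberellin synthesis gene, passed the adjusted p alone and was lower (-0.59). It did not pass in DESeq2 or without Col-0 replicate 3 or *hy5-215* replicate 2.

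The light signalling list itself held no DEG among 26 genes tested, and its median was 0.03, or -0.07 with library size alone. *BBX24*, a B-box protein that inhibits HY5, had 172, 142 and 159 CPM in WT and 274, 242 and 192 CPM in *hy5-215* (log2 fold change 0.58, adjusted p = 1.74e-05, edgeR). *BBX20*, a B-box partner of HY5, was lower (-0.88, adjusted p = 0.00437), and both passed the adjusted p alone. *COP1* (-0.16), *SPA1* (0.21), *PHYA* (-0.12), *PHYB* (0.01), *CRY1* (0.201) and *UVR8* (-0.03) did not pass. Of 19 clock genes, the morning gene *CCA1* (0.41), *LNK1* (0.800), *LNK2* (0.53) and *RVE1* (0.48) were higher by the adjusted p alone. With library size alone 3 clock genes were higher and 2 lower, and 2 were lower without *hy5-215* replicate 3.

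Of 14 cold and abscisic acid genes, *KIN1*, a cold-induced gene, was a DEG, with 17.9, 19.6 and 13.4 CPM in WT and 7.57, 7.15 and 2.76 CPM in *hy5-215* (log2 fold change -1.53, adjusted p = 3.97e-05, edgeR). *COR78* (-0.93), *ERD10* (-0.797), *COR6.6* (-0.56) and *COR47* (-0.38) were lower and *COR15A* (0.88) higher by the adjusted p alone. *COR15A* did not pass in DESeq2, in the joint fit of the 4 shoot groups, or without Col-0 replicate 2 or 3 or *hy5-215* replicate 1. Among 11 genes of salicylic and jasmonic acid defence, 3 were DEGs, 1 higher and 2 lower. *LOX2*, a lipoxygenase of jasmonate synthesis, had 297, 215 and 222 CPM and 76.9, 69.3 and 98.8 CPM (log2 fold change -1.59, SE 0.11, adjusted p = 1.28e-15, edgeR). The defensin gene *PDF1.3* was lower (-1.34). *WRKY70*, a transcription factor of salicylic acid defence, was higher, with 20.4, 27.6 and 21.7 CPM in WT and 56.9, 60.3 and 53.2 CPM in *hy5-215* (1.29, SE 0.14, adjusted p = 9.05e-10, edgeR). Of 16 nitrate and sulfate genes, *NRT1.5*, which loads nitrate into the xylem, was higher, with 20.7, 17.1 and 16.2 CPM and 33.5, 38.2 and 40.8 CPM (1.06). It went just under 2-fold with library size alone (0.96) and without Col-0 replicate 3 (0.99). Of 7 heat shock genes, *HSC70-1* (-0.26) and *HSP81-2* (-0.26) were lower by the adjusted p alone, and of 14 early stress and touch genes 4 were higher and 2 lower. No heat shock gene was lower without Col-0 replicate 1 or 2 or *hy5-215* replicate 1 or 2. None was lower in the joint fit of the 4 shoot groups, and only 1 was in DESeq2 or without Col-0 replicate 3.

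The 6 shoot libraries at 28 °C share no library with the comparison at 22 °C. There, 285 of 15702 genes were DEGs (1.82%), 178 higher (1.13%) and 107 lower (0.681%) in *hy5-215*. Of the 161 genes lower at 22 °C, 135 were tested at 28 °C, 107 (79.3%) had the same sign and 40 were lower DEGs again, and their median log2 fold change was -0.66 against -1.27 at 22 °C. Of the 87 higher genes with Col-0 above the floor at 22 °C, 75 were tested, 67 (89.3%) had the same sign and 32 were higher DEGs again, with a median of 0.81 against 1.26. Over all genes tested at both temperatures, 61.3% had the same sign. The genes left out had too few counts at 28 °C. The interaction of genotype and temperature, fitted on 12 shoot libraries and called in 1.03% of 16429 genes tested, was passed by 18 of the 161 lower and 5 of the 108 higher DEGs. The DEGs were chosen on libraries that also enter this interaction, so smaller changes at 28 °C and a share above that of all genes are expected from the choice alone. The total of 169 genes rests on single libraries. It ranged from 60 (without *hy5-215* replicate 2 at 28 °C) to 398 (without Col-0 replicate 1 at 28 °C), moving by over 1.5 times also without Col-0 replicate 2 or 3 at 22 °C (104 and 76), Col-0 replicate 2 or 3 at 28 °C (70 and 97) or *hy5-215* replicate 3 at 28 °C (319). Among the 22 °C DEGs the count ranged from 12 to 41.

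**Figure D4:**
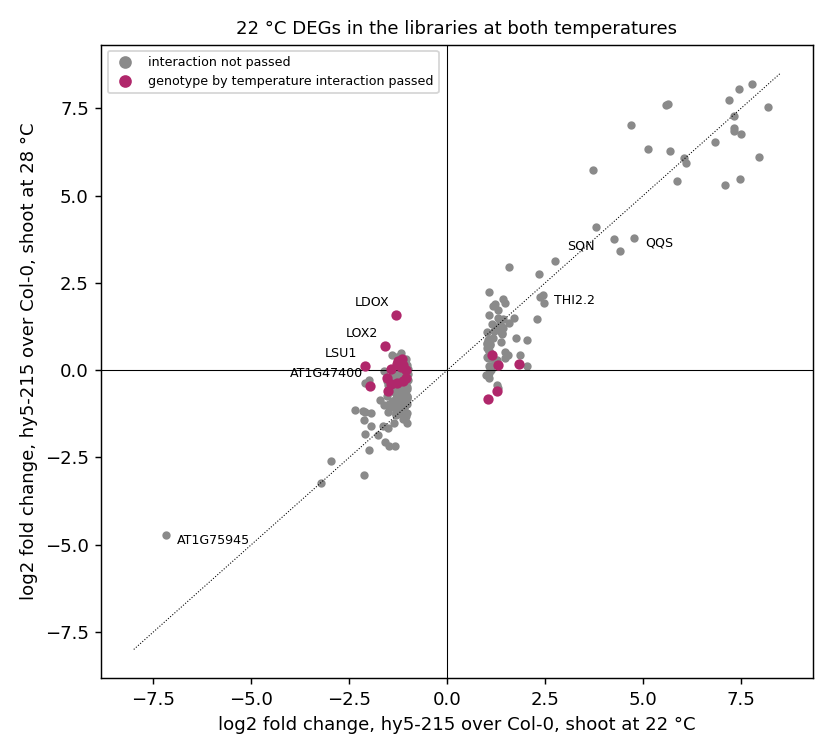
Log2 fold change of *hy5-215* over Col-0 in the shoot at 28 °C (y axis) against that at 22 °C (x axis), for the 22 °C DEGs tested at both temperatures. Points are genes, coloured where the genotype by temperature interaction passed, and the dotted line marks equal changes; *LSU1* lies at -2.11 and 0.13, and *SQN* at 4.25 and 3.76.

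The nutrient and flavonoid lists can be set beside their values at 28 °C. Of the phosphate list, 4 of 15 genes tested there were lower DEGs, the median was -0.47, and no member passed the interaction. *IPS2* had a log2 fold change of -1.83, *SPX1* of -1.31 and *SRG3* of -1.24. *PAP17* had one of -1.14 there, against -2.36 at 22 °C, and its interaction only just missed the threshold (1.21, adjusted p = 0.0528, edgeR). The sulfur list had a median of 0.01 at 28 °C, with *SULTR1;2* as a higher DEG (1.19) and no lower DEG among the 12 genes tested there. *LSU1* was low in both genotypes at 28 °C (5.67, 4.91 and 7.48 CPM in WT, 6.6, 5.09 and 8.33 CPM in the mutant), and its genotype effect differed between the temperatures (interaction 2.22, adjusted p = 0.00847, edgeR). The flavonoid list had a median of 0.11 at 28 °C and no DEG among 16 genes. *GSTF12* (interaction 3.71, adjusted p = 0.012) and *LDOX* (2.87, adjusted p = 0.0154) passed the interaction in edgeR, whereas *CHS* (1.04, adjusted p = 0.149) and *FLS1* (1.06, adjusted p = 0.444) did not. *GSTF12* had a mean of 2.33 counts in the Col-0 libraries at 28 °C, so its fitted value is loose. *GSTF12* and *LDOX* did not pass without Col-0 replicate 2 or *hy5-215* replicate 2 at 28 °C, nor did *LDOX* without Col-0 replicate 1 at 22 °C or *hy5-215* replicate 1 at 28 °C (adjusted p up to 0.0691 for *GSTF12* and 0.0717 for *LDOX*). *LOX2* turned from lower at 22 °C to 170, 120 and 83.7 CPM in WT and 287, 211 and 103 CPM in *hy5-215* at 28 °C, where the groups overlapped (interaction 2.27, adjusted p = 0.000105, edgeR). Of the early stress and touch list, 6 genes were higher DEGs at 28 °C and none at 22 °C, and 6 of its 14 genes passed the interaction.

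The difference between shoot and root was tested as a genotype by tissue interaction at 22 °C, called in 6.48% of 17911 genes tested. It was passed by 42 of the 160 lower and 12 of the 108 higher shoot DEGs that could be tested, which were again chosen on libraries in the fit. The root libraries differ in markers too. Shoot markers summed to 1003 to 1209 CPM in the Col-0 root and 511 to 616 CPM in the *hy5-215* root, root markers differed as given above, and seed markers stood at 0, 63.6 and 135 CPM in the 3 *hy5-215* root libraries against at most 2.403 CPM in the Col-0 root. Their part in the interaction was not tested. *PAP17* had 9.48, 8.41 and 13.1 CPM in the Col-0 root and 10.1, 16.3 and 8.86 CPM in the *hy5-215* root, so its fall was not seen there (interaction 2.61, adjusted p = 1.31e-05, edgeR). *IPS2* was lower in both tissues, with 376, 482 and 523 CPM and 201, 207 and 211 CPM in the root, but by less than in the shoot (interaction 0.94, adjusted p = 0.00335). *CHS* fell further in the root, from 725, 560 and 505 CPM to 58.1, 41.6 and 38.4 CPM (interaction -2.42, adjusted p = 1.8e-09, edgeR), and so did *FLS1*, from 148, 130 and 128 CPM to 4.398, 7.65 and 4.64 CPM (interaction -3.05, adjusted p = 3.81e-08). *SQN* had 36.8, 31.8 and 41.02 CPM in the Col-0 root and 32.1, 37.3 and 47.3 CPM in the *hy5-215* root, with overlapping groups (interaction -4.16, adjusted p = 4.59e-13). Of the 23 antenna and Rubisco genes, 20 passed the interaction, and *LHCB2.3* had 18.4, 21.6 and 20.5 CPM in the Col-0 root and 10.6, 14.6 and 11.4 CPM in the mutant root. The shoot markers, which include antenna genes, were lower in the mutant root libraries as well.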

How the data were processed

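Arabidopsis thaliana shoot RNA was measured by 3′Tag-Seq. The deposited tables hold raw counts per gene, which the authors made with HISAT2 and HTSeq on the TAIR10 annotation, per the study's methods. Versions and the strand setting are not given in the sources used here. Of 33977 gene identifiers, 32548 matched the RefSeq TAIR10.1 annotation.

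The *hy5-215* and Col-0 tables were joined by identifier, and the 6 libraries alone were fitted in edgeR 4.0.16 (R 4.3.3, limma 3.58.1) after filterByExpr (minimum count 10, minimum total 15) and TMM scaling, with the quasi-likelihood test and p-values adjusted by Benjamini-Hochberg over all genes tested. DEGs passed an adjusted p of 0.05 and 2-fold. Each SE printed was derived from the test, as the size of the log2 fold change over the square root of the F statistic. It is not a fitted standard error, and for *CHS* DESeq2 gave 0.32 against 0.14. Interactions were fitted on 12 libraries. Fits were tested on simulated data with the same dispersion for all genes and changes larger than those of most DEGs here, placed in well-counted genes only. That test does not cover smaller changes or low counts. Where every library of a genotype held 3 counts or fewer, but not all held none, ratios carry exact 95% intervals. These cover counting error only.

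The genes named were *HY5*, then the 12 largest falls and 12 largest rises among DEGs that averaged 20 counts or more and whose groups did not overlap, then all DEGs in each list, with uncalled members as values. List members that passed the adjusted p alone were chosen after their values were seen. The groups, lists and tests were chosen with earlier results of these data known, and 4 lists were added after values were seen. Deviations of same-numbered libraries from their group means correlated at 0.0263, -0.0151 and 0.0446, so replicate numbers were not taken to pair libraries. Alternatives were DESeq2 1.42.0, other scalings and filters, a likelihood ratio test, a replicate block, a joint fit, no fold threshold and leaving out each library.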

Additional observations from a re-analysis of the deposited data

Results flagged for a closer look

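The difference of the genotype effect (*hy5-215* minus Col-0, log2) between 28 °C and 22 °C passed in the shoot for 5 of the genes named. It was 2.22 for *LSU1* (adjusted p = 0.00847, edgeR), 2.27 for *LOX2* (adjusted p = 0.000105), 1.51 for AT1G47400 (adjusted p = 0.0262), 3.71 for *GSTF12* (adjusted p = 0.012) and 2.87 for *LDOX* (adjusted p = 0.0154). *LSU1* and *LOX2* passed in all 19 alternatives run for them. AT1G47400 passed in 12 of 19 (adjusted p up to 0.11), *GSTF12* in 16 of 18 (up to 0.0691) and *LDOX* in 14 of 18 (up to 0.0717).

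The difference between root and shoot at 22 °C passed for 13 genes, each in every alternative run. It was positive, so the effect in the root was less negative or of the other sign, for *PAP17* (2.61), AT5G20790 (2.29), *LSU1* (4.18), *IPS2* (0.935) and *PPsPase1* (3.19). It was negative for *HY5* (-1.39), *CHS* (-2.42), *FLS1* (-3.05), *ELIP2* (-2.67), *SQN* (-4.16), *GH9B15* (-6.67), *CSD2* (-0.897) and *LHCB2.3* (-1.89). In edgeR the adjusted p ranged from 4.59e-13 for *SQN* to 0.00539 for *CSD2*. Some groups behind these values had almost no counts. *GH9B15* had 1 count in all in the *hy5-215* root and at most 8 in a Col-0 root library, *LSU1* a mean of 2 counts in the Col-0 root, and *GSTF12* a mean of 2.33 counts in Col-0 at 28 °C. Their fitted differences depend on the prior count and are no bounds.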

How the results depend on the processing

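Without the fold threshold, 1454 genes were called at 22 °C and 920 at 28 °C. For 22 °C, DESeq2 called 207 genes, no filter on low counts 365 and the fit with a replicate block 279, against 269, and leaving out 1 library gave 235 to 291. For 28 °C leaving out 1 library gave 223 to 347 against 285, and the replicate block 330. The temperature interaction called 169 genes. DESeq2 called 106, leaving the low counts in 366, a likelihood ratio test 270 and the replicate block 266, and leaving out 1 library gave 60 to 398. The tissue interaction called 1161 genes, 1220 with the replicate block and 890 to 1316 with 1 library left out. Of 52 DEGs named by the rule, 40 kept their call in all 15 alternatives, 12 lost it in some and none reversed. No call could be lost by dropping the fold threshold, which is among the 15. The 52 include genes that passed the filter on low counts only through 1 genotype, where a difference was built in. In these, the other genotype was at the floor or under the filter's minimum count of 10. Depth limits genes under about 10 counts, which were mostly not tested. The causes were not tested.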
